A study of Mus musculus with 40 samples.

Results

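The connexins are the channel proteins of gap junctions, and 7 of their genes that mark glia or neurons are described here in mouse striatum: Gja1 (which encodes Cx43), Gjb6 (Cx30), Gjb2 (Cx26), Gjb1 (Cx32), Gjc3 (Cx29), Gjc1 (Cx45) and Gjd2 (Cx36). They were chosen by symbol and are 7 of the 20 connexin genes and of the 24058 gene symbols in the count table. RNA was sequenced from 40 libraries in 10 groups of 4. RiboTag is an adeno-associated virus that expresses an HA-tagged ribosomal protein, Rpl22-HA, from a cell-type promoter, so that immunoprecipitation (IP) with an antibody to HA pulls down the ribosome-bound RNA of the infected cells, while the input holds RNA of all striatal cells. No label of the IP libraries of the astrocyte cohort (C57/BL6NTac mice labelled Control, IP and input) names the promoter. The cohort was assigned to the gfaABC1D RiboTag because the other WT IP of this substrain was named for the neuronal promoter. The study also describes an astrocyte RiboTag in this substrain. The neuron cohort used the hSyn1 RiboTag. Both cohorts received the virus at 6 weeks of age. The SAPAP3 cohort comprised C57/BL6J WT mice and C57/BL6J-Dlgap3 KO mice, which lack the postsynaptic scaffold protein SAPAP3, encoded by Dlgap3, and were injected at 4.5 months. Its labels name no promoter, so its IP is given no cell type here. The last 8 libraries were bulk striatum of WT and KO mice, labelled as C57/BL6NTac, which received no RiboTag, and 1 WT and 1 KO bulk library carry the same animal number.

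Connexin proteins assemble in a ring into a hemichannel, and hemichannels of apposed cells dock to form a channel that passes ions and small metabolites. Astrocytes are coupled into a network mainly through Cx43 and Cx30. Oligodendrocytes carry Cx32 and Cx29 in and around myelin, and Cx36 is the main connexin of electrical synapses between neurons.

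Library totals ran from 23438112 to 84109800 counts. All 10 astrocyte markers, a list that holds no connexin, were higher in the IP than in the input of the astrocyte cohort. Their median log2 fold change was 3.01. In the neuron IP 0 of 10 were called higher, that is at an adjusted p under 0.05 and a log2 fold change past 1. Their values there had a median of -0.54 and ran up to 0.66. The same 10 of 10 rose in the IP of the SAPAP3 WT and KO mice, with medians of 2.24 and 2.32. Of 9 neuron markers tested, 3 were called higher in the neuron IP, and all had a positive log2 fold change (0.23 to 1.08, median 0.80). Microglial markers were low in every IP (44.1 to 166 CPM, that is counts scaled to a common library total, summed over 10 genes, against 487 to 1738 in inputs and bulk). Dlgap3 reads did not vanish in the KO libraries, which held 166 to 200 CPM in input, 49.8 to 87.2 in IP and 144 to 161 in bulk, all below their WT counterparts (376 to 514, 154 to 212 and 232 to 385 CPM). In bulk samples, fewer cells of a type and less RNA per cell cannot be told apart.

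Upstream sequence is shown for the 3 genes that moved together in the astrocyte IP, so that their start regions can be compared. RefSeq promoters on GRCm38.p6 were found for 6 of the 7 genes, with 4 entries for Gjb1 and none for Gjc1. The 250 bases before the start site are chr10:56377050-56377299 on the plus strand for Gja1, chr14:57133612-57133861 on the minus strand for Gjb6 and chr14:57104703-57104952 on the minus strand for Gjb2, written 5′ to 3′ with matches to the searched motifs in capitals.
Gja1: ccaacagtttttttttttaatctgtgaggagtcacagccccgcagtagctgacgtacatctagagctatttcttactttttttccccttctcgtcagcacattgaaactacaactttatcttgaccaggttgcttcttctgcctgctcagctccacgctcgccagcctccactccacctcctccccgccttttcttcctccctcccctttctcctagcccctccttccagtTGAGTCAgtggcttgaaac
Gjb6: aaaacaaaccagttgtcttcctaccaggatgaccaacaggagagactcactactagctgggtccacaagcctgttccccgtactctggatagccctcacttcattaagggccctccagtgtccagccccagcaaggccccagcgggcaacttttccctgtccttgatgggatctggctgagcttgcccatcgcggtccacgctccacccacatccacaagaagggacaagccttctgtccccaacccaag
Gjb2: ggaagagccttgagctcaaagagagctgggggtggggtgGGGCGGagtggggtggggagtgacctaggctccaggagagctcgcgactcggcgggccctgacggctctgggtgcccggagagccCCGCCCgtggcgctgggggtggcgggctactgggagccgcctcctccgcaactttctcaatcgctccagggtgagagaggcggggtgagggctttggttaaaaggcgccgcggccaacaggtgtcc
The motifs, read on both strands, were the TATA box TATAAA, the GC box GGGCGG, the AP-1 site TGACTCA and the SOX core AACAAT. The Gja1 sequence held 1 match, to AP-1, which 4.46% of 32851 promoters of the same length hold. The Gjb2 sequence held 2 GC boxes, a motif present in 32.7% of promoters, and the Gjb6 sequence held none of the motifs, so the 3 genes shared no match. TATAAA and AACAAT occur in 12.4% and 9.42% of promoters. Gjb6 and Gjb2 lie 18598 bp apart on chromosome 14, while Gja1 is on chromosome 10.

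Gja1, the chief astrocyte connexin (chr10:56377300-56390419, plus strand, GRCm38.p6, with 3105 bp of exon), had the largest IP enrichment of the 7 genes in the astrocyte cohort. Its level was 139, 138, 135 and 133 CPM in the inputs and 944, 906, 947 and 851 CPM in the IPs. The lowest IP library was above 6 times its own input, with ratios of 6.42 to 7.03 in the 4 mice. The log2 fold change was 2.97 ± 0.045 (SE, edgeR quasi-likelihood test, adjusted p = 2.4e-12), and Gja1 ranked 36 of 15476 genes tested by this fold change. In the SAPAP3 cohort Gja1 was 144, 141, 160 and 157 CPM in WT input and 560, 635, 783 and 687 CPM in WT IP. In KO mice it was 141, 161, 161 and 165 CPM in input and 597, 708, 871 and 763 CPM in IP. The log2 fold changes there were 2.32 ± 0.11 and 2.43 ± 0.11 (edgeR adjusted p = 3.8e-07 and 3.3e-08), and IP and input did not overlap in either genotype. In the neuron cohort the direction was the opposite, with 161, 166, 156 and 172 CPM in input and 93.5, 99.8, 77.2 and 91.1 CPM in the hSyn1 IP, again without overlap. That difference (log2 -0.65 ± 0.064, edgeR adjusted p = 9.6e-06) did not reach the limit of 1 on the log2 scale that was set for a call.

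Gjb6, which encodes the second astrocyte connexin (chr14:57123301-57133611, minus strand), was lower than Gja1 per length of exon but rose with it. In the astrocyte cohort it was 35.8, 31.0, 28.3 and 25.8 CPM in input and 128, 126, 119 and 100.2 CPM in IP (log2 2.19 ± 0.10, edgeR adjusted p = 3.9e-09). The IP over input ratios of single mice were 3.57 to 4.21 there, 3.52 to 4.00 in SAPAP3 WT and 3.62 to 4.28 in SAPAP3 KO mice. The SAPAP3 fold changes were 2.06 ± 0.18 and 2.15 ± 0.18 on the log2 scale (edgeR adjusted p = 9.7e-06 and 1.6e-06). In the neuron IP Gjb6 was 12.6, 10.4, 14.2 and 13.5 CPM against 34.0, 25.6, 34.2 and 34.4 in input, and it was called lower (log2 -1.13 ± 0.12, edgeR adjusted p = 1.4e-05).

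Gjb2 (chr14:57098602-57104702, minus strand), best known from the cochlea and also expressed in astrocytes and leptomeningeal cells, was the rarest of the 3 genes but passed the test in the same comparisons and directions as Gjb6. It was 3.94, 3.88, 3.57 and 2.75 CPM in astrocyte cohort input and 11.0, 10.7, 11.3 and 10.2 CPM in IP (log2 1.83 ± 0.11, edgeR adjusted p = 2.3e-08). The IP of SAPAP3 WT mice held 10.2, 16.1, 12.7 and 13.8 CPM against 2.82 to 5.31 in input, and the IP of KO mice 11.7, 18.9, 14.7 and 14.8 CPM against 3.22 to 5.60 in input (log2 1.96 ± 0.21 and 2.03 ± 0.18). The neuron IP held 1.62, 1.41, 1.17 and 1.36 CPM, below every one of its inputs at 3.35 to 5.68 CPM (log2 -1.63 ± 0.18, edgeR adjusted p = 1.7e-05). Markers of leptomeningeal fibroblasts went the other way from Gjb2 in the astrocyte IP, where 8 of 10 were called lower and 0 higher. Their sum was 19.9 to 22.8 CPM in IP against 38.0 to 46.8 in input. In SAPAP3 WT and KO IP 8 of 10 were also called lower and 0 higher. In the neuron IP they went the same way as Gjb2, with 9 of 10 called lower and 0 higher. Their sums there were 8.87 to 11.0 CPM against 60.7 to 96.4 in input. In the astrocyte cohort IP and in the neuron IP, 6 of the 10 averaged under 0.5 CPM. Of ependymal and choroid plexus markers, 5 of 6 tested were called higher in the astrocyte cohort IP and 1 lower (sums 57.3 to 109 CPM against 27.2 to 34.0). In SAPAP3 WT and KO IP 5 of 7 were higher, with 0 and 1 lower, and in the neuron IP 0 of 8 were higher and 1 lower. The part of either list in the Gjb2 difference was not tested.

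**Figure D1:**
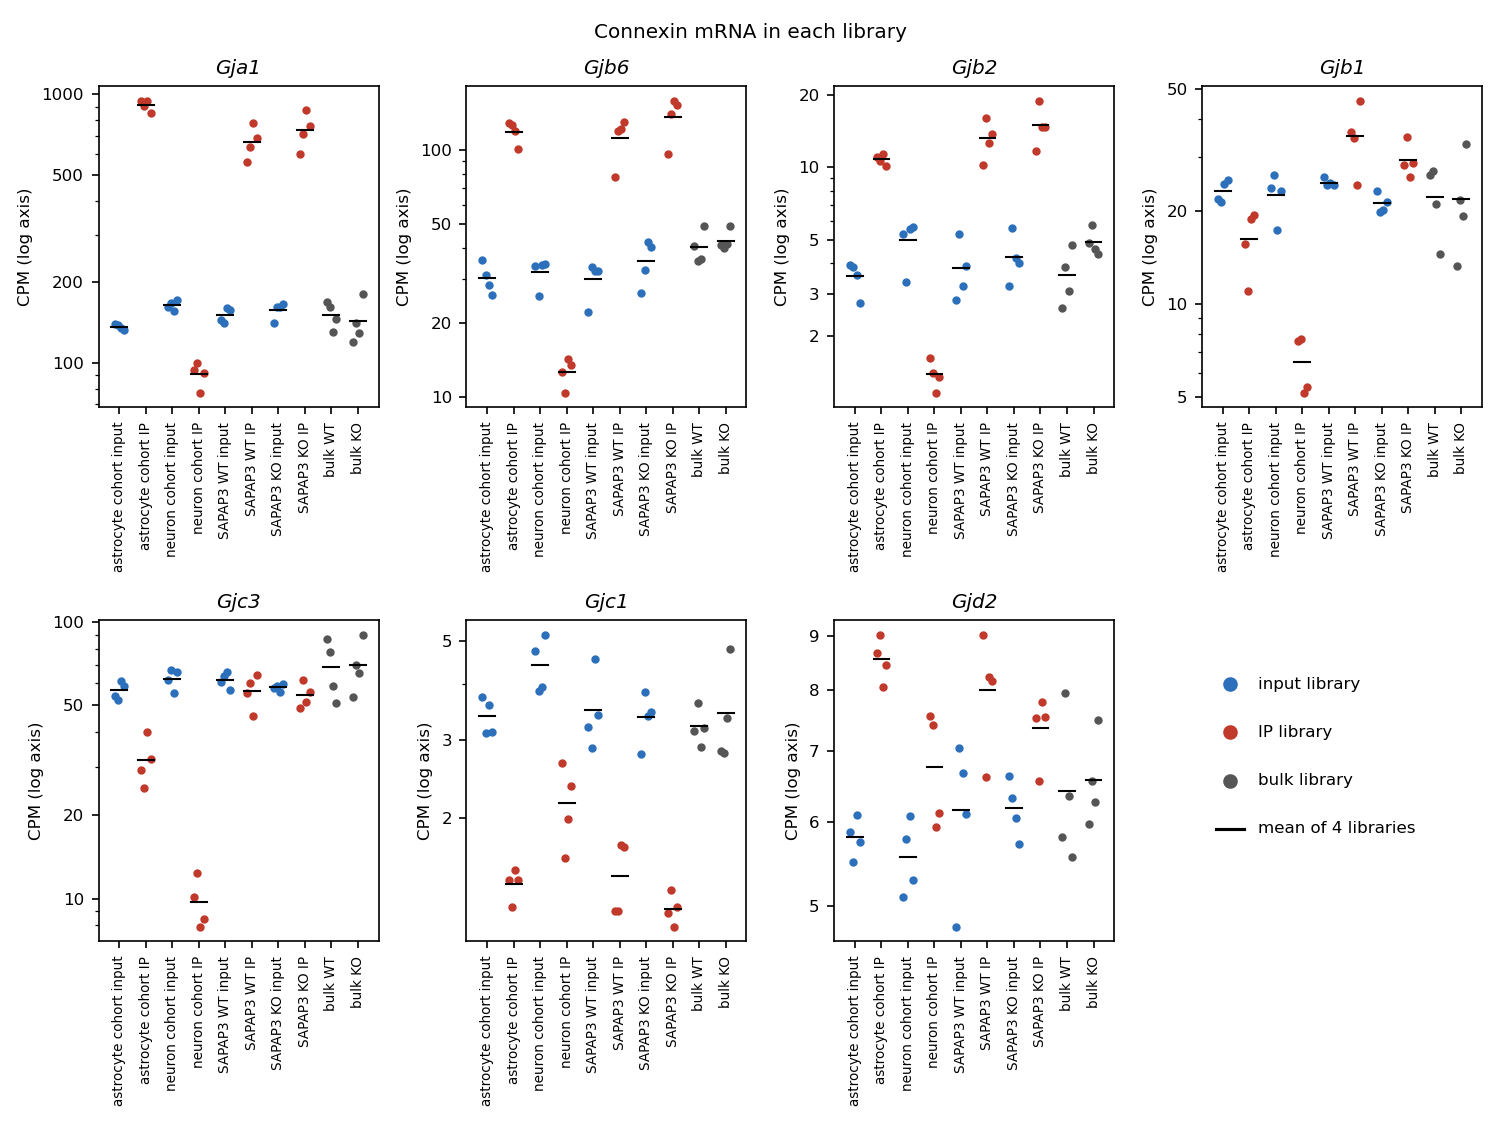
Level of each connexin mRNA in all 40 libraries. The vertical axes give CPM on a log scale, points are libraries (blue input, red IP, grey bulk) and lines are means of 4. Gja1, Gjb6 and Gjb2 stand above all inputs in the IPs of the astrocyte and SAPAP3 cohorts and below all inputs in the neuron IP.

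Gjb1 and Gjc3 are the genes of oligodendrocyte connexins, and neither was enriched past the limit in any IP by edgeR's own scaling. Scaled to ribosomal protein genes, Gjb1 passed it in SAPAP3 WT and KO IP (log2 1.39 and 1.29, edgeR adjusted p = 2.6e-06 and 1.2e-06). Gjb1 (chrX:101376376-101385629, plus strand) was 22.0, 21.4, 24.6 and 25.3 CPM in astrocyte cohort input and 15.7, 11.1, 18.9 and 19.6 CPM in IP. The IP was lower in 4 of 4 mice by CPM, but the edgeR test, which rescales the libraries, gave log2 -0.29 ± 0.15 (adjusted p = 0.087). Gjc3 (chr5:137950992-137963098, minus strand) was 53.8, 52.4, 61.4 and 58.7 CPM in input and 29.2, 25.1, 40.1 and 32.0 CPM in IP (log2 -0.62 ± 0.12, edgeR adjusted p = 0.00051, short of the limit). With the ribosomal scaling both differences were positive (0.89 and 0.57). The neuron IP held far less of both: Gjb1 was 7.61, 7.75, 5.17 and 5.39 CPM against 17.4 to 26.2 in input, and Gjc3 was 10.1, 12.4, 7.92 and 8.43 CPM against 55.2 to 66.9. These were the called decreases of log2 -1.60 ± 0.16 and -2.48 ± 0.13 (edgeR adjusted p = 1.1e-05 and 2.0e-07), and the drop of Gjc3 was the largest of the 7 genes there.

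In the SAPAP3 cohort neither gene was lower in the IP by the test. Gjb1 was 25.8, 24.4, 24.7 and 24.3 CPM in WT input and 36.1, 34.7, 24.3 and 45.7 CPM in WT IP, so 3 of 4 mice were higher in IP and the ranges overlapped (log2 0.68 ± 0.16, edgeR adjusted p = 0.0036, not past the limit). In KO mice it was 28.2, 34.9, 25.8 and 28.6 CPM in IP, above all inputs at 19.9 to 23.4 (log2 0.67 ± 0.10, edgeR adjusted p = 0.00012, not past the limit). Both values for Gjb1 passed the limit with the ribosomal scaling, as given above. Gjc3 was 45.7 to 64.1 CPM in WT IP and 56.7 to 65.8 in WT input, with log2 fold changes of 0.04 ± 0.10 in WT and 0.11 ± 0.077 in KO mice (edgeR adjusted p = 0.75 and 0.21).

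Among the IP groups, Gjb1 and Gjc3 were lowest in the neuron IP and next lowest in the astrocyte cohort IP, as were the summed oligodendrocyte markers. Over input, the markers had median log2 fold changes of 0.75 and 0.77 in SAPAP3 WT and KO IP. Gjb1 had 0.68 and 0.67 there, but Gjc3 only 0.04 and 0.11. The summed CPM of 10 oligodendrocyte markers was 1356 to 2181 in the neuron IPs, 3487 to 5930 in the astrocyte cohort IPs, 7665 to 11145 in SAPAP3 WT IPs and 7098 to 9973 in SAPAP3 KO IPs, against 5386 to 7211 in all inputs. In the neuron IP 10 of 10 of these markers were called lower, beside 15.8% of all genes. In the astrocyte cohort IP 1 of 10 was called lower, beside 13.5% of all genes, and 0 higher. Their median log2 fold change there was -0.16, against -0.29 for Gjb1 and -0.62 for Gjc3. In the SAPAP3 WT and KO IPs 4 of 10 were called higher and 0 lower, beside 10.9% and 12.3% of all genes called higher. None of the 10 was near 0 in any IP. The part of oligodendrocyte RNA in the Gjb1 and Gjc3 differences was not tested.

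**Figure D2:**
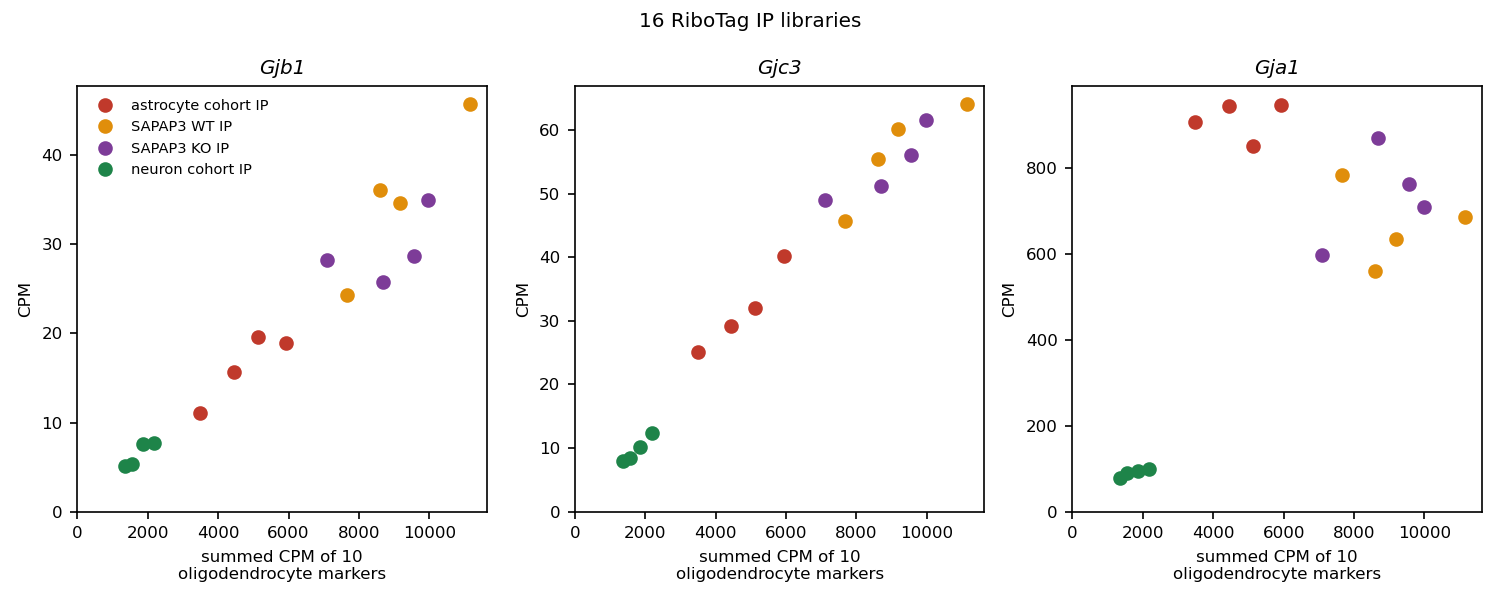
Gjb1, Gjc3 and Gja1 in the 16 IP libraries. The horizontal axis is the summed CPM of 10 oligodendrocyte markers, the vertical axis the CPM of the connexin, and colours give the cohort. The neuron IPs are lowest in marker sum (1356 to 2181 CPM), Gjb1 and Gjc3, and the library with the highest sum (11145 CPM, SAPAP3 WT) has the highest Gjb1 and Gjc3, whereas Gja1 does not follow the sum in the other 3 groups.

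Gjc1, which encodes Cx45, a connexin of vascular cells and of some neurons (chr11:102799477-102819686, minus strand), was the lowest of the 7 per length in all groups but the neuron IP, where Gjb2 was lower, and its level was lower in every IP than in its input. It was 3.74, 3.10, 3.60 and 3.12 CPM in astrocyte cohort input and 1.45, 1.26, 1.53 and 1.45 CPM in IP (log2 -1.03 ± 0.13, edgeR adjusted p = 1.8e-05). The call lay at the limit: without input replicate 1, input replicate 3 or IP replicate 2 the log2 fold change was -0.97, -0.99 or -0.96, and scaled to ribosomal protein genes it was 0.16 (adjusted p = 0.31). In SAPAP3 WT mice it was 1.24, 1.23, 1.73 and 1.72 CPM in IP against 2.87 to 4.55 in input (log2 -1.08 ± 0.21), a call lost without input replicate 3 (-0.91), and in KO mice 1.14 to 1.38 against 2.79 to 3.85 (log2 -1.22 ± 0.15). The neuron IP held 2.66, 1.62, 1.99 and 2.37 CPM against 3.85 to 5.17 (log2 -0.83 ± 0.16, edgeR adjusted p = 0.00097, not past the limit). Endothelial markers moved with it: 10 of 10 were called lower in the astrocyte cohort IP, with sums of 11.9 to 14.5 CPM against 134 to 169 in input, and 9 of 10 in the neuron IP. Markers of mural cells, the contractile cells of vessel walls, went both ways: of 8, 2 were called higher and 4 lower in the astrocyte cohort IP, with sums of 96.2 to 105 CPM against 126 to 134 in input, and 1 higher and 3 lower in the neuron IP (55.8 to 63.6 against 116 to 127). The part of these markers in the Gjc1 difference was not tested.

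Gjd2, the gene of the neuronal connexin Cx36 (chr2:114009601-114014378, minus strand), was higher in each IP by edgeR at adjusted p under 0.05, but never past the fold limit. It was 5.87, 5.50, 6.10 and 5.75 CPM in astrocyte cohort input and 8.68, 9.02, 8.06 and 8.45 CPM in IP, without overlap (log2 0.78 ± 0.074, adjusted p = 1.6e-06). In the neuron cohort it was 5.09, 5.78, 6.08 and 5.29 CPM in input and 7.56, 7.42, 5.93 and 6.12 CPM in IP, with overlap (log2 0.48 ± 0.10, adjusted p = 0.0017). SAPAP3 WT and KO mice gave 0.55 ± 0.15 and 0.45 ± 0.095 on the log2 scale, also with overlap of IP and input. Scaled to ribosomal protein genes Gjd2 passed the limit in the astrocyte cohort and in both SAPAP3 genotypes (1.97, 1.26 and 1.06). The antisense gene A530058N18Rik overlaps Gjd2, and its level was 2.67 ± 0.34 CPM in astrocyte cohort input and 0.977 ± 0.15 in IP (SD, n = 4), the opposite order. Whether the counting used strand is not known, so reads of the pair may be mixed. Markers of striatal interneurons, among which electrical coupling is known, also moved: 6 of 8 were called higher in the astrocyte cohort IP, with sums of 796 to 903 CPM against 245 to 263 in input, while in the neuron IP 2 of 8 were called higher and 1 lower (475 to 526 against 358 to 395). In SAPAP3 WT IP 5 of 8 were called higher and 1 lower, and in KO IP 3 higher and 1 lower. Of the 9 general neuron markers, 0 were called higher and 1 lower in the astrocyte cohort IP and in each SAPAP3 IP. The neuron IP had 3 of them higher and 0 lower. Their sums were 4816 to 5254 CPM in astrocyte cohort IP against 6977 to 7367 in input. In the neuron cohort they were 9410 to 9646 in IP against 6683 to 6939 in input. The part of either list in the Gjd2 difference was not tested.

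**Figure D3:**
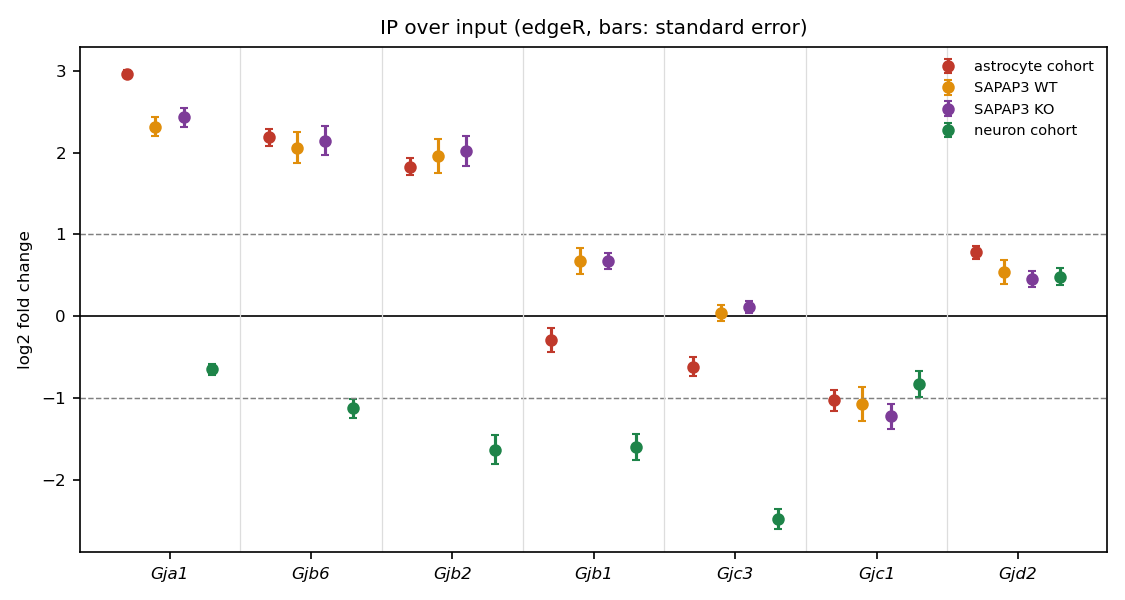
IP over input of each connexin in 4 sets of mice. The vertical axis is the edgeR log2 fold change with its standard error (4 IP against 4 input libraries) and dashed lines mark the limit of 1 for a call. Gja1, Gjb6 and Gjb2 lie above 1 in 3 of the sets and below 0 in the neuron cohort, Gjc1 lies below 0 in all 4 and Gjd2 above 0 in all 4.

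Counted over the set, 3 of 7 connexins were called higher and 1 of 7 lower in the astrocyte cohort IP, where 13.4% of the 15476 genes tested were called higher and 13.5% lower. The neuron IP gave 0 of 7 higher and 4 of 7 lower, beside 0.420% and 15.8% of 16198 genes. The SAPAP3 WT IP gave 3 higher and 1 lower (10.9% and 12.1% of 15587 genes) and the SAPAP3 KO IP 3 higher and 1 lower (12.3% and 11.5% of 15583 genes). The median log2 fold change of the 7 was 0.78, -1.13, 0.68 and 0.67 in these 4 comparisons, with medians of all genes between -0.03 and 0.00.

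A test of the difference between the astrocyte and neuron enrichments (an interaction term in edgeR) called 6 of 7 connexins higher in the astrocyte cohort, where 70.1% of 16371 genes were called in either direction. The differences were 3.62 ± 0.082 for Gja1, 3.32 ± 0.17 for Gjb6 and 3.47 ± 0.22 for Gjb2 on the log2 scale. Those of Gjc3 and Gjb1 were smaller, at 1.86 ± 0.19 and 1.31 ± 0.24. The difference of Gjd2 (0.30 ± 0.13, edgeR adjusted p = 0.046) was lost in 6 of 8 fits that left out 1 mouse and under limma-voom (adjusted p = 0.072), and that of Gjc1 was not called (-0.20 ± 0.21, adjusted p = 0.41). Promoter and cohort differ together between these groups, and the plan of the comparison lists sex as differing too. They cannot be told apart. Between SAPAP3 WT and the astrocyte cohort, the enrichment of Gja1 was lower by edgeR (-0.63 ± 0.12, adjusted p = 0.0024) and that of Gjb1 and Gjc3 higher (0.99 ± 0.24 and 0.68 ± 0.17, adjusted p = 0.0095 and 0.012), 3 of 7 beside 20.5% of 16032 genes. Without SAPAP3 WT replicate 4 the Gjc3 difference was 0.56 (adjusted p = 0.053), and scaled to ribosomal protein genes those of Gjb1 and Gjc3 were 0.50 and 0.18 (adjusted p = 0.056 and 0.40), and Gjd2 was called lower (-0.71, adjusted p = 0.012). Of the oligodendrocyte markers 9 of 10 were higher and of the astrocyte markers 8 of 10 lower in the same comparison. Substrain, age and cohort cannot be told apart there.

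Loss of SAPAP3 did not give a called change in any connexin. KO over WT called 0 of 7 in RiboTag input, 0 of 7 in RiboTag IP and 0 of 7 in bulk striatum by edgeR, beside 0.00641%, 0.0263% and 0% of 15591, 15198 and 16020 genes. limma-voom and DESeq2 also called 0 of 7 in each. Dlgap3 itself was called in input and IP (log2 -1.19 ± 0.10 and -1.40 ± 0.17, edgeR adjusted p = 0.0070 and 0.028) but not in bulk (-1.14 ± 0.14, adjusted p = 0.32), so a change of that size can go uncalled in the bulk comparison. At an unadjusted p under 0.05, edgeR counted 1, 0 and 1 of the 7, beside 869, 399 and 792 genes in all. These were Gjb1 in input, 23.4, 19.9, 20.2 and 21.5 CPM in KO against 25.8, 24.4, 24.7 and 24.3 in WT without overlap (log2 -0.19 ± 0.066, edgeR adjusted p = 0.73), and Gjb2 in bulk, 4.86, 5.77, 4.58 and 4.37 CPM in KO against 2.61, 3.88, 3.07 and 4.77 in WT (log2 0.43 ± 0.18, edgeR adjusted p = 0.98). For Gja1 the 95% interval of the KO over WT log2 difference was -0.06 to 0.24 in input, -0.14 to 0.46 in IP and -0.39 to 0.17 in bulk. For Gjb6 it was -0.12 to 0.64, -0.11 to 0.71 and -0.19 to 0.31. A doubling of either gene lies outside these intervals. The IP over input effect itself differed between KO and WT for 0 of 7 (edgeR, 0% of 16059 genes, 203 genes and 0 of the 7 at an unadjusted p under 0.05, 0 of the 7 also by limma-voom and DESeq2).

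**Figure D4:**
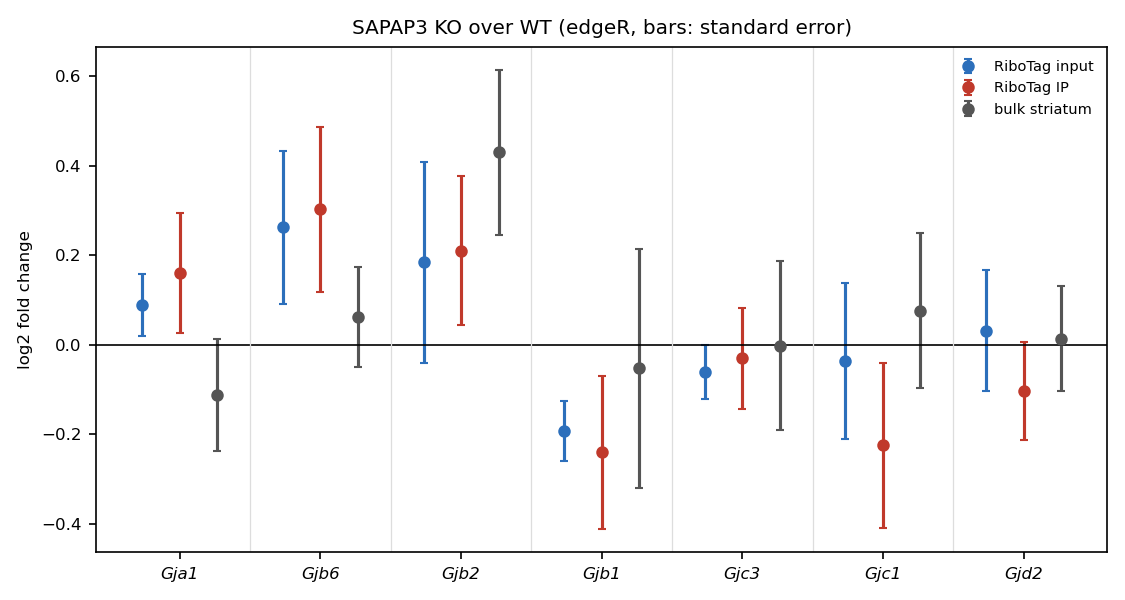
SAPAP3 KO over WT for each connexin. The vertical axis is the edgeR log2 fold change with its standard error for 4 KO against 4 WT libraries of RiboTag input (blue), RiboTag IP (red) and bulk striatum (grey). Values lie between -0.24 and 0.43, and none passed the test.

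Compared per length, Gja1 made up the largest share of connexin mRNA in all 10 groups. Of the summed RPKM (reads per kilobase of exon, with CPM as the library scale) of 20 connexin genes, Gja1 held 45.3% ± 0.86 in astrocyte cohort input, 80.0% ± 0.44 in its IP and 64.3% ± 1.7 in the neuron IP (SD, n = 4). The summed RPKM was 367 ± 18 in the astrocyte cohort IP and 45.3 ± 4.0 in the neuron IP, so that the large Gja1 share of the neuron IP went with a low total. Gja1 alone was 274 to 305 RPKM in the astrocyte cohort IP and 24.9 to 32.2 RPKM in the neuron IP. Gjd2 held 4.51% ± 0.28 in the neuron IP, its highest share, against 1.60% ± 0.20 in the neuron input and 0.706% ± 0.054 in the astrocyte cohort IP. Gjb1 and Gjc3 held 11.9% ± 1.0 and 14.2% ± 1.1 in astrocyte cohort input and 2.19% ± 0.55 and 2.09% ± 0.39 in its IP. In SAPAP3 WT and KO IP, Gja1 held 69.5% ± 3.8 and 70.8% ± 2.1, and Gjb6 13.0% ± 1.6 and 14.6% ± 1.3. In bulk WT and KO striatum Gja1 held 47.1% ± 1.6 and 45.1% ± 0.81.

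**Figure D5:**
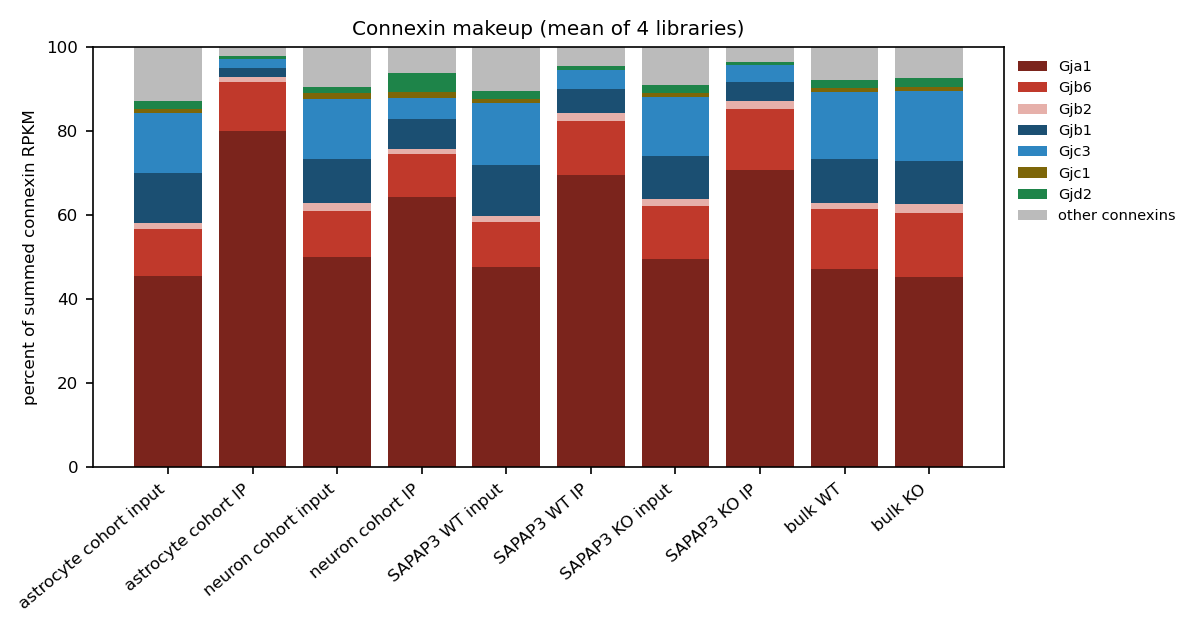
Share of each connexin in the summed RPKM of 20 connexin genes. Bars are means of 4 libraries per group, in percent, and add to 100. Gja1 takes 45.1% to 49.9% in inputs and bulk, 80.0% in the astrocyte cohort IP and 64.3% in the neuron IP, and the Gjd2 band is widest in the neuron IP.

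Ordered by mean CPM, the IPs of the astrocyte, SAPAP3 KO and SAPAP3 WT groups were the upper 3 for Gja1, Gjb6 and Gjb2, with ranges that overlapped between neighbours, and the lowest of them did not overlap the next group. The inputs and bulk followed with overlapping ranges, and the neuron IP was the last group, apart from all others. For Gjb1 and Gjc3 the neuron IP was the last group, apart from all others, and the astrocyte cohort IP the last but 1. The astrocyte cohort IP overlapped no other group for Gjc3 (25.1 to 40.1 CPM). For Gjb1 (11.1 to 19.6 CPM) it did not overlap the next group, SAPAP3 KO input. It did overlap bulk WT, bulk KO and neuron input, whose lowest libraries were at 14.6, 13.3 and 17.4 CPM. The groups higher up overlapped their neighbours. For Gjc1 the inputs and bulk (3.21 to 4.43 CPM) stood above the 4 IPs (1.25 to 2.16 CPM), and for Gjd2 all 10 groups overlapped their neighbours (5.56 to 8.55 CPM).

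The genes whose log2 level was most like that of a connexin over the 40 libraries, among 14027 genes, are given with Pearson's r as a description. The points share cohorts, and every group difference enters r. For Gja1 they included Fads2 (0.995), a fatty acid desaturase, and Cat (0.995), which encodes catalase. For Gjb6 they were Glul (0.981), the glutamine synthetase of astrocytes, Paqr8 (0.980) and Ppara (0.978), and for Gjb2 Acacb, Atp13a4 and Jam2 (0.968, 0.968 and 0.961). For Gjb1 they were Pllp, Tmem63a and S1pr5 (0.979, 0.976 and 0.972), and for Gjc3 Mbp (0.982), which encodes myelin basic protein, Prr18 (0.975) and Sox2ot (0.974). For Gjc1 they were Map2k5, 5430416N02Rik and 2610100L16Rik (0.947, 0.928 and 0.926). Gjd2 had the weakest likeness, to Kit, Popdc3 and Aplp2 (0.822, 0.819 and 0.817). Among the members, r was 0.936 between Gja1 and Gjb6, 0.957 between Gjb6 and Gjb2 and 0.884 between Gjb1 and Gjc3. With each cohort centred, 0 of the 3 genes stayed in the top 3 for Gjb1, 1 of 3 for Gja1, Gjb6 and Gjc1, and 2 of 3 for Gjb2, Gjc3 and Gjd2.

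The other connexins were scarcer. Of 13, 5 passed the filter in each of the WT RiboTag cohorts of C57/BL6NTac mice, and 0 were called higher in any IP. Called lower were 2 of 5 in the astrocyte cohort IP, 2 of 5 in the neuron IP, 3 of 4 in SAPAP3 WT and 2 of 3 in SAPAP3 KO. The shares of all genes called lower were 13.5%, 15.8%, 12.1% and 11.5%. The lowest log2 fold changes of the other connexins were -1.49, -2.42, -2.39 and -1.69, and not all of these genes are named here. Gja4 (Cx37), an endothelial connexin, was called lower in the astrocyte cohort IP (log2 -1.48 ± 0.20) and in both SAPAP3 IPs (-1.13 ± 0.22 and -1.38 ± 0.28). Gjd3 was lower in the astrocyte cohort IP (-1.49 ± 0.26), and Gja5 in the SAPAP3 WT IP (-1.10 ± 0.31). Gja4 and Gjb5 lie 74.4 and 118 kb from Dlgap3, the gene changed in the KO mice, and 0 of the 5 or fewer other connexins tested were called in KO over WT.

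Pannexins form related channels that do not dock. Of Panx1 and Panx2, the 2 of 3 tested, only Panx2 passed the limit in an IP, lower in SAPAP3 KO (log2 -1.06 ± 0.12). Of 12 genes for connexin scaffolds, traffic and turnover, 4 were called higher (up to log2 1.98) and 1 lower in the astrocyte cohort IP. The shares of all 15476 genes tested were 13.4% and 13.5%. Among the 12, Tjp1 (1.03 ± 0.048) and Tjp3 (1.12 ± 0.30), which encode zonula occludens proteins, and Prkca (1.16 ± 0.035), a protein kinase C, rose. Dbn1 (-1.01 ± 0.043), which encodes the actin-binding protein drebrin, fell. Tjp1 and Tjp3 also rose in SAPAP3 KO IP (1.08 ± 0.098 and 1.11 ± 0.33). In SAPAP3 WT IP they lay short of a call (0.91 ± 0.092 and 0.80 ± 0.33, edgeR adjusted p = 2.2e-05 and 0.057), and the difference of the IP over input effect between KO and WT was called for 0 of the 12. In the neuron IP 1 of 12 was called, Cav1, the gene of caveolin-1 (lower, -2.57 ± 0.073). KO over WT called 0 of 12 in input, IP and bulk by edgeR.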

How the data were processed

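Reads of mouse striatal RNA, from anti-HA IP, input and bulk tissue, were aligned to mm10 with STAR and counted with HTSeq by the authors, according to the submitters' processing notes, and the authors deposited raw counts per gene symbol without normalization. The strand setting, the annotation and the handling of reads with several alignments are not given in the sources used here. The 40 columns were all used, and 2 repeated symbols, none a member, were kept as rows of their own.

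CPM was computed from column totals, and RPKM from merged exon lengths of GRCm38.p6, found for 99.2% of symbols. Each comparison used edgeR 4.0.16 (filterByExpr, TMM, quasi-likelihood test, two-sided, Benjamini-Hochberg over all genes tested) on the compared groups only, in R 4.3.3. IP over input was called at an adjusted p under 0.05 and a log2 fold change past 1, and other comparisons at an adjusted p under 0.05. The steps were tested on simulated data. Alternatives were limma-voom (3.58.1), DESeq2 (1.42.0), other filters, scaling to 80 ribosomal protein genes, a replicate block and leaving out libraries. All 7 members, and from the fixed lists the genes called in an IP over input or KO over WT comparison, are named; likeness was Pearson's r of log2(CPM + 0.5) over genes averaging 1 CPM or more, with up to 3 genes named each. Some genes that these rules name are not reported here.

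The members and lists were chosen with earlier results of these data known. Inputs and IPs of the same number come from the same animal by the labels, except that the neuron cohort's labels give them different animal numbers. Deviations from group means correlated over 0.1 for every pair in each cohort (lowest 0.251 in the astrocyte cohort, 0.472 in the neuron cohort, 0.563 and 0.471 in SAPAP3 WT and KO), so the numbers were taken to pair the samples. No label says that bulk libraries came from separate mice, and 1 animal number occurs in both genotypes. The p-values measure the spread between these samples only. Transcripts of the 7 genes, aligned with minimap2 2.31-r1302, gave no second genomic match of 0.8 identity over 0.1 of a transcript.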

Additional observations from a re-analysis of the deposited data

Results flagged for a closer look

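The values of 3 groups hold a library far from the other 3, out of 70 examined, and chance alone picks out about 1 in 20. Gjb6 was 22.1 CPM in SAPAP3 WT input replicate 1, where the next library was at 32.3 CPM. Gjb6 and Gjb2 were 25.6 and 3.35 CPM in the same neuron input, replicate 2, where the next libraries were at 34.0 and 5.32 CPM.

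The IP over input effect differed between the astrocyte and neuron cohorts by a tested interaction for Gja1 (3.62 on the log2 scale), Gjb6 (3.32), Gjb2 (3.47), Gjb1 (1.31), Gjc3 (1.86) and Gjd2 (0.30). It differed between SAPAP3 WT and the astrocyte cohort for Gja1 (-0.63), Gjb1 (0.99) and Gjc3 (0.68).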

How the results depend on the processing

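The number of connexins called stayed within 1.5 times its main value in every comparison and alternative run, except that requiring RPKM above 5 in 4 libraries left 2 called in the astrocyte cohort, SAPAP3 WT and SAPAP3 KO (2 in each), since Gjb2 and Gjc1 were no longer tested. Of 469 values of single connexins under alternatives other than leaving out a library, 437 kept direction and call, and of 560 with a library left out, 517 did. The replicate block, that is the paired analysis, changed no connexin call (4, 4, 4 and 4 called in the IP over input comparisons, 6, 0 and 3 in their differences) but raised the genes called between SAPAP3 WT and the astrocyte cohort from 3280 to 4980. Scaling to 80 ribosomal protein genes moved the median log2 fold change of all genes to 1.16 (astrocyte cohort), 0.44 (neuron), 0.69 (SAPAP3 WT) and 0.60 (SAPAP3 KO), to 0.72 for astrocyte minus neuron and to -0.46 for SAPAP3 WT minus astrocyte. It reversed Gjb1 (0.89), Gjc1 (0.16) and Gjc3 (0.57) in the astrocyte cohort, Gjc1 in astrocyte minus neuron (0.54), Gjb2 in SAPAP3 WT minus astrocyte (-0.35), Gjc1 in KO over WT input (0.0066), and Gja1, Gjb6, Gjb2 and Gjc3 in KO minus WT (-0.00098, -0.0083, -0.026 and -0.023). It also gave calls to Gjb1 in SAPAP3 WT and KO (1.39 and 1.29) and ended the calls of Gjb6 in the neuron IP (-0.69) and of Gjc1 in SAPAP3 WT and KO (-0.36 and -0.62). Other reversals were of values near 0: Gjc3 in SAPAP3 WT under the RPKM filter (-0.020), and in bulk KO over WT Gjc3 under limma-voom (0.0079) and the RPKM filter (0.0053), Gjd2 with Xist as a covariate (-0.013), and Gja1, Gjb1 and Gjc3 without the libraries that share an animal number (0.022, 0.22 and 0.25). The causes were not tested.

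Leaving out 1 library changed the sign of some uncalled values, with these ranges: in SAPAP3 WT, Gjc3 -0.041 to 0.11; in KO over WT input, Gjc1 -0.12 to 0.13, Gjd2 -0.078 to 0.10; in IP, Gjc3 -0.12 to 0.041; in bulk, Gjb6 -0.0052 to 0.17, Gjb1 -0.31 to 0.12, Gjc1 -0.11 to 0.16, Gjc3 -0.14 to 0.15, Gjd2 -0.047 to 0.12. In KO minus WT they were Gja1 -0.00013 to 0.13, Gjb6 -0.021 to 0.11, Gjb2 -0.049 to 0.082, Gjb1 -0.19 to 0.14, Gjc3 -0.094 to 0.16, Gjd2 -0.27 to 0.033, and in SAPAP3 WT minus astrocyte Gjc1 -0.13 to 0.049. Gjd2 in astrocyte minus neuron ran from 0.19 to 0.40.

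Genes called in all numbered 4157, 2635, 3590 and 3713 in the astrocyte, neuron, SAPAP3 WT and SAPAP3 KO IPs, and 1702, 508, 1270 and 1422 under the RPKM filter. Ribosomal scaling gave 9884 and 5773 in the astrocyte cohort and SAPAP3 WT, and 8984 between SAPAP3 WT and the astrocyte cohort. Astrocyte minus neuron gave 11469, and 7169 under the RPKM filter. KO over WT gave 1, 4 and 0 genes in input, IP and bulk, but 8, 8 and 17 by DESeq2, and 8 in input and 18 in bulk with all 40 libraries in 1 fit. KO minus WT gave 0, and 1 by DESeq2 and by the joint fit. With a library left out, KO over WT gave 0 to 1 genes in input, 0 to 3 in IP and 0 to 1 in bulk, and with a mouse left out 1858 (without astrocyte cohort replicate 2) to 4478 were called between SAPAP3 WT and the astrocyte cohort. Levels scaled by TMM were 0.900 to 1.107 times those by total counts, and 19 of 70 moved by more than 1 SD. Without length correction the Gja1 share was 46.6%, 81.5%, 50.7%, 50.8% and 66.1% in astrocyte cohort input and IP, SAPAP3 KO input, and neuron input and IP. With 4 libraries a group, and under 6 CPM for Gjb2 and Gjc1 in inputs, small changes of these genes may have gone uncalled. The smallest change that could be detected was not computed.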
